A study of Caenorhabditis elegans with 16 samples.

Results

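Wild-type (N2) larvae that had been starved and then given *C*. *elegans* maintenance medium (CeMM, a defined liquid medium of simple nutrients) for 15 h were compared with wild-type larvae at the end of starvation. The 2 groups make up 4 of the 16 RNAseq samples of the series, 2 samples each, and were taken by the genotype and condition in the sample labels. Gravid adults were bleached, their eggs hatched without food in a buffered salt solution, and the larvae, which arrest at the first larval stage (L1) under these conditions, were starved for 33 h by the study's methods. The other samples, used only as reference points, were wild-type larvae given CeMM for 3 h, wild-type larvae fed on dishes of *E*. *coli* OP50, and the same 4 conditions in *hlh-30(lf)* larvae. These carry *tm1978*, a deletion allele that removes exons of *hlh-30*, the worm gene for the TFEB-type transcription factor that acts on lysosomal and autophagy genes. By the study's methods the fed larvae were at L1 and were collected sooner after the egg stage than the starved and CeMM larvae. Each sample was RNA from a pool of larvae. By the study's methods the replicates are biological and each was done at its own time with its controls, and the labels do not say which samples share a time. No larvae kept in salt solution for the extra 15 h were analysed here, and CeMM and the added time cannot be told apart.

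An L1 larva that hatches without food stops dividing its blast cells and lives on the fat and yolk its mother supplied. Insulin-like and TGF-beta signals are low in this state, the transcription factor DAF-16 is active, and stress proteins and autophagy are engaged. When nutrients arrive the intestine takes them up, the growth pathways restart and the larva resumes postembryonic development. Worms break down fatty acids in mitochondria, after import as carnitine esters, and in peroxisomes, which also make the ascaroside pheromones. They can turn the acetyl-CoA so released into sugar through the glyoxylate shunt, a route that mammals lack.

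The 4 libraries held between 34684827 and 40891427 counted reads. Values are given below for each sample, replicate 1 before replicate 2, as read counts normalized by edgeR's TMM scaling to a common library size (CPM), and log2 fold changes with their standard error (SE) come from edgeR's quasi-likelihood test with Benjamini-Hochberg adjustment over all genes tested. CeMM 15 h replicate 2 stood apart from the other 3 libraries. Ribosomal RNA genes took 12.9% of its counts against 2.75% to 3.85%, its 100 most abundant genes took 39.3% against 30.4% to 32.2%, and the mitochondrial genome took 0.510% against 0.928% to 1.06%. Short genes were also high in it: over genes averaging 10 CPM or more, the median log2 ratio of replicate 2 to replicate 1 was 0.36 for 337 genes with under 500 nt of exon and -0.11 for 596 genes with at least 4000 nt, where the starved pair gave -0.03 and 0.06. The comparison was also run without this library, and the counts without it are given for each gene list in which 5 or more calls in 1 direction were lost or gained.

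The mutated gene of the series, *hlh-30* (WBGene00020930, chromosome IV, 4014799 to 4028127, WBcel235), was counted at 662 and 619 CPM in the starved and 691 and 528 CPM in the CeMM 15 h samples. The wild-type level did not differ detectably (log2 fold change -0.07 ± 0.10, adjusted p = 0.68), but the sign and the call depended on single CeMM 15 h samples: it was called lower without replicate 1 (-0.28) and was at 0.11, not called, without replicate 2. Libraries labelled *hlh-30(lf)* still held 370.2 to 747.3 CPM, and counts over the whole gene, which include exons outside the deletion, do not check the genotype. Genes that mark tissues were counted in both groups. Of 6 intestinal markers 4 were higher and 1 was lower: *act-5*, the actin of the intestinal microvilli, went from 84.2 and 113 to 578 and 651 CPM (2.64 ± 0.21), while *ifb-2*, an intestinal intermediate filament, went from 2086 and 2426 to 834 and 859.7 CPM (-1.41 ± 0.09). Body wall muscle markers gave 1 higher (at 0.99), 3 lower and 3 not called of 7, at a median of -0.01. The largest fall was in the myosin heavy chain *unc-54*, at 17041 and 16915 and then 6298 and 5810.1 CPM (-1.49 ± 0.12). Of 9 neuronal and of 5 hypodermal markers 1 each was higher and none lower, *ric-4* at 0.23 and *elt-1* at 0.36, and neither call held without normalization factors. Pharynx markers gave none higher and 2 lower of 5, at a median of -0.32: the homeobox gene *ceh-22* was at -0.60 ± 0.11 and *pha-4* at -0.32 ± 0.10, the second a call that was lost when a library was left out (adjusted p up to 0.25). Of 6 germline markers *nos-2*, also an early embryonic RNA, was lower (2.44 and 1.53 to 0.117 and 0.0306 CPM) and the helicase *glh-1* higher (0.52 ± 0.15, adjusted p up to 0.22 when a library was left out). Of 2 coelomocyte markers *unc-122* was higher (0.48 ± 0.11), a call that did not hold without normalization factors. In whole larvae fewer cells of a type and less RNA per cell cannot be told apart. Markers of unhatched embryos also moved with the groups: 7 of 9 were lower at 15 h, at a median of -2.42. The RNA-binding proteins *pos-1* (26.7 and 23.03 to 1.32 and 1.74 CPM) and *mex-5* (21.2 and 17.5 to 4.15 and 3.03 CPM) were among them, and *pes-10* had 27 counts in the starved pair and 0 in the CeMM pair. The part of left-over eggs in the falls reported below was not tested.

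Of 30177 genes with at least 1 count in the series, 8817 (29.2%) differed between CeMM 15 h and starved larvae at an adjusted p of 0.05. Of these, 4661 (15.4%) were higher at 15 h and 4156 (13.8%) were lower. A change of at least 2-fold was called for 1767 genes upward (5.86%) and 1948 downward (6.46%). Protein-coding genes made up 4477 of the higher and 3750 of the lower genes, out of 19156 tested. Of all 30177 genes, 13205 averaged 1 CPM or more in the 4 samples. The shares over all genes therefore include many genes with few reads. They are a low baseline for lists of well-counted protein-coding genes. The 4 fits that each left out 1 library kept 3259 of the higher and 2497 of the lower calls in all 4, and no called gene changed sign. Scaling by total counts in place of TMM (no normalization factors) shifted the log2 fold changes by a median of -0.19 and gave 3150 higher and 5553 lower genes. Fold changes below are relative to the TMM scale.

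The largest rises included genes of fatty acid use. *acs-2* (WBGene00009221, chromosome V, 15567394 to 15569889) encodes the acyl-CoA synthetase that readies fatty acids for mitochondrial oxidation. It was at 1.502 and 2.39 CPM in the starved and 1061 and 955 CPM in the CeMM 15 h samples (log2 fold change 9.01 ± 0.57 SE, adjusted p = 2.3e-06). The CeMM 3 h samples lay in between at 149.8 and 158 CPM, and fed larvae were at 3.98 and 6.08 CPM. *fat-5*, a desaturase that acts on palmitic acid, went from 0.737 and 0.694 to 196 and 231 CPM (8.22 ± 0.21, adjusted p = 6.2e-14), and had reached 202 and 203 CPM by 3 h. Both genes are among the 12 largest rises, and the rule for these required both CeMM 15 h samples to lie above both starved samples.

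Among the other rises were *pgph-2*, a phosphoglycolate phosphatase homolog, from 1.19 and 1.304 to 189 and 239 CPM, and the fatty acid and retinol binding protein *far-3*, from 1.05 and 1.05 to 79.7 and 106 CPM. The carnitine palmitoyltransferase *cpt-3* was at 0.340 and 0.250 CPM in starved and 29.2 and 29.1 CPM in CeMM 15 h larvae (6.61 ± 0.21, adjusted p = 3.5e-19). The secreted SCP-like proteins *scl-24* and *scl-25* rose by 7.25 and 6.94 on the log2 scale. For *scl-25*, which had 6 counts in the starved pair against 719, the ratio was 128 with a 95% counting interval of 58.4 to 349. *F48C1.9* had 2 starved counts against 2053, a ratio of 1095 with an interval of 303 to 9045. The genes *F46C5.1*, *Y37A1A.2*, *F10C2.7* and the pseudogene *WBGene00014732* complete the 12 and ended between 19.3 and 54.2 CPM.

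The largest falls included small heat shock proteins. *hsp-12.6* (WBGene00002013, chromosome IV, 9446385 to 9446980), a small heat shock protein of the HSP12 family, went from 168 and 129 CPM in the starved samples to 0.614 and 0.704 CPM at 15 h (-7.81 ± 0.17, adjusted p = 4.7e-22). Its relative *hsp-12.3* went from 121.95 and 91.9 to 3.66 and 4.44 CPM (-4.72 ± 0.36). Both were already low at 3 h, at 0.803 and 0.736, then 3.14 and 1.12 CPM. *lmd-4*, a LysM domain protein, fell from 85.3 and 112 to 1.14 and 1.04 CPM (-6.49 ± 0.24), and the glutathione S-transferase *gst-20* from 567 and 599 to 24.9 and 29.3 CPM (-4.43 ± 0.11). *asm-3*, an acid sphingomyelinase, went from 58.8 and 73.1 through 14.5 and 16.6 at 3 h to 4.62 and 3.92 CPM (-3.95 ± 0.14). In this gene the value at 15 h was below that at 3 h (log2 fold change -1.86 ± 0.14, adjusted p = 2.0e-10). *pos-1*, one of the embryo markers above, was also among the 12 (-4.02 ± 0.22). *F47B8.10*, *Y46G5A.36*, *F40G12.5*, *txt-4*, *T10C6.15* and *C47D12.5* had log2 fold changes between -6.25 and -3.77.

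**Figure D1:**
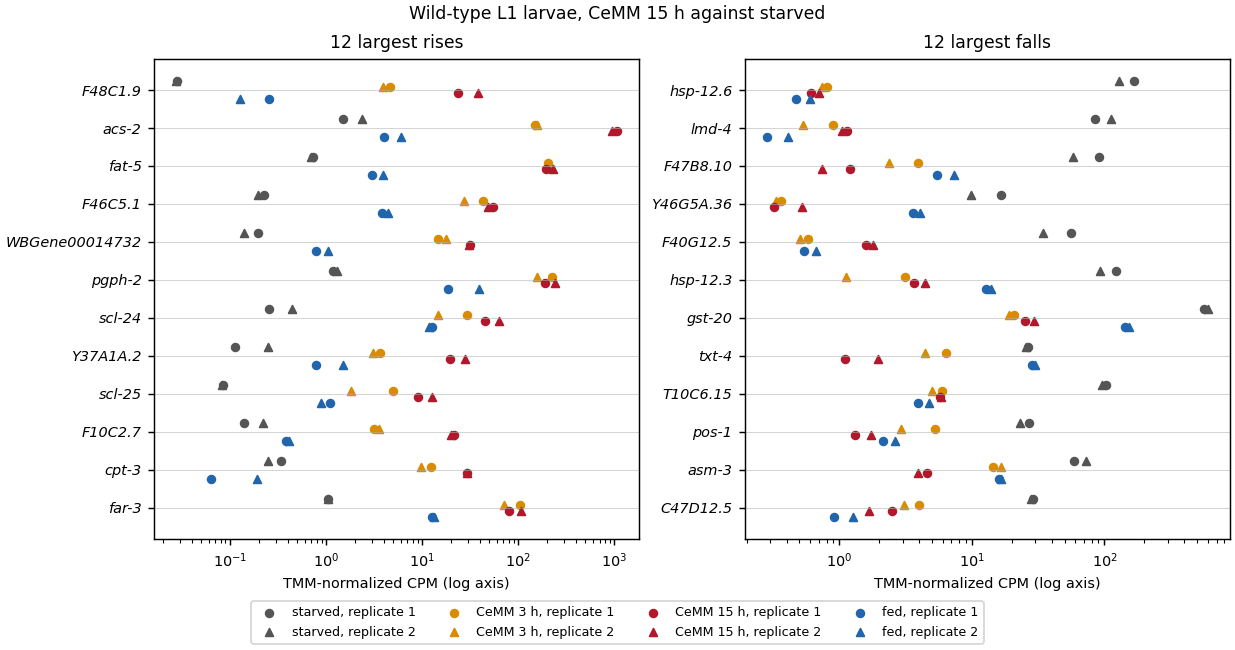
TMM-normalized CPM (log axis) of the 12 genes with the largest rise (left) and fall (right) from starved to CeMM 15 h, with 1 point per sample for the starved, CeMM 3 h, CeMM 15 h and fed wild-type samples. The CeMM 15 h points lie to the right of the starved points in every row of the left panel and to the left of them in every row of the right panel, which the choice of these genes required.

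Genes of mitochondrial fatty acid oxidation were higher as a group. Of 19 genes of the pathway 15 were higher at 15 h and 1 was lower, and their median log2 fold change was 1.56, where that of all genes was 0. The lower gene was acdh-9, an acyl-CoA dehydrogenase, at -0.32. Besides *acs-2* and *cpt-3*, *hacd-1*, a hydroxyacyl-CoA dehydrogenase, went from 3.29 and 2.55 to 236 and 227 CPM (6.31 ± 0.25, adjusted p = 6.3e-09). The carnitine palmitoyltransferases *cpt-5* and *cpt-1*, which load fatty acids onto carnitine for import, went from 0.935 and 0.944 to 28.5 and 21.5 CPM (4.73 ± 0.17) and from 109 and 130.2 to 488 and 446 CPM (1.97 ± 0.20). *ech-1.2*, a subunit of the trifunctional protein, rose by 2.07. The direct test of 15 h against 3 h, in which 2679 of all genes (8.88%) were higher and 1852 (6.14%) lower (1326 and 4150 without normalization factors), divided the pathway. *acs-2*, *hacd-1* and *cpt-3* were higher at 15 h than at 3 h, by 2.71, 2.58 and 1.41 on the log2 scale, and 13 of the 19 were lower, among them *cpt-5* by -1.25 and *cpt-1* by -0.73.

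All but 1 of the 11 peroxisomal oxidation genes were higher at 15 h than in starved larvae, none was lower, and the median was 1.75. *acox-1.1*, an acyl-CoA oxidase of ascaroside synthesis, was at 11.8 and 15.1 CPM in starved, 489.9 and 446 CPM in CeMM 3 h and 111 and 114 CPM in CeMM 15 h samples. It was thus above starved at 15 h (3.06 ± 0.11, adjusted p = 3.2e-18) and below its own 3 h level (-2.06 ± 0.10, adjusted p = 2.3e-14). *daf-22*, the thiolase that ends each round, went from 17.96 and 22.8 through 270.0 and 244 to 85.9 and 87.5 CPM, and *dhs-28*, the dehydrogenase before it, from 50.2 and 58.7 through 451 and 415 to 177 and 189 CPM. *maoc-1*, the hydratase, was highest at 3 h in the same way, at 136 and 113 CPM against 39.8 and 37.5 CPM at 15 h and 27.7 and 28.1 CPM in starved larvae. In all, 8 of the 11 were lower at 15 h than at 3 h and none was higher. The fed samples stood near the 15 h level for *acox-1.1* (106 and 108 CPM) and *daf-22* (89.2 and 96.4 CPM).

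**Figure D2:**
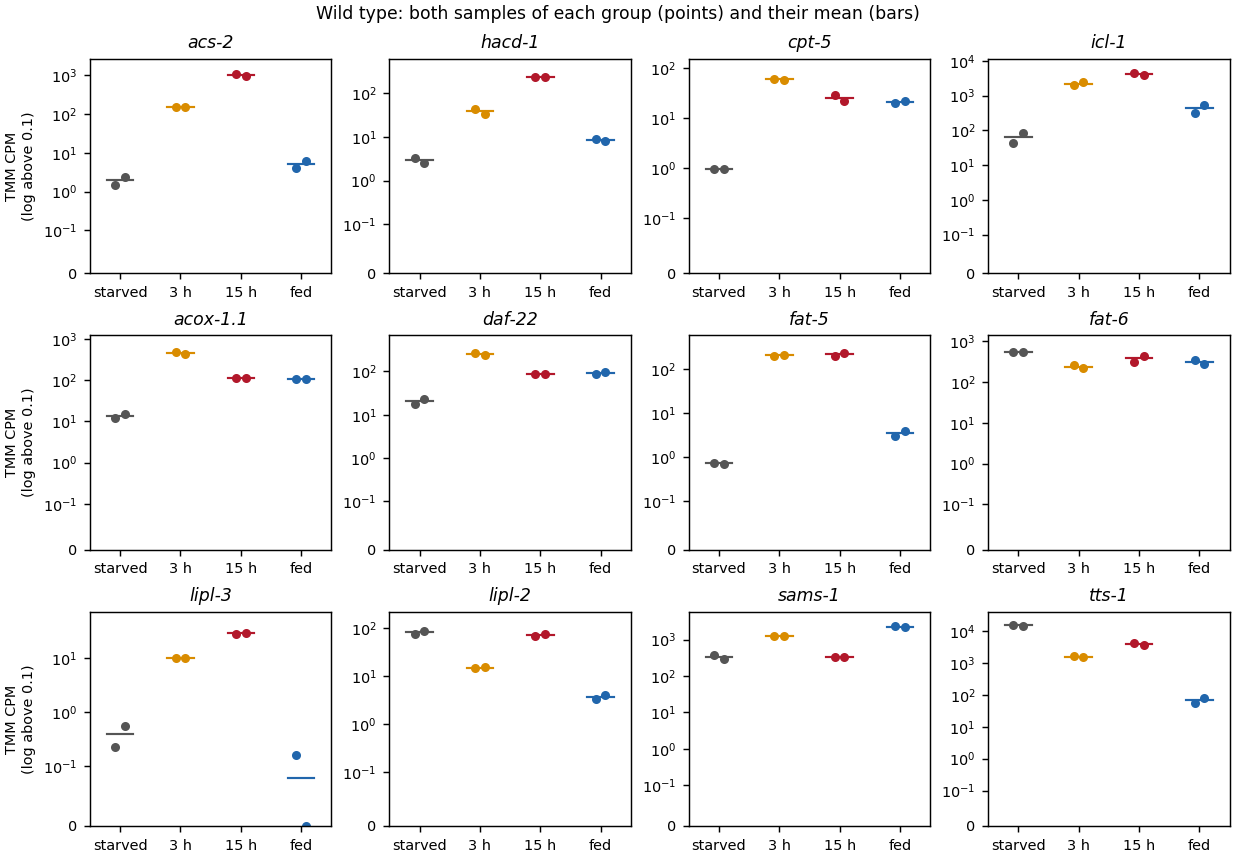
TMM-normalized CPM of 12 genes in the 8 wild-type samples, with both samples of each group as points and their mean as a bar, on an axis that is logarithmic above 0.1 CPM. *acs-2* and *hacd-1* rise from starved over 3 h to 15 h, *acox-1.1* and *daf-22* peak at 3 h, and *lipl-2* and *tts-1* are low at 3 h and higher at 15 h.

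Most desaturases, which make unsaturated fatty acids, rose. Of 7 desaturases 5 were higher and 1 was lower. The enzymes of polyunsaturated fatty acid synthesis moved together: *fat-2*, which makes linoleic acid, went from 755 and 791 to 1841 and 2297 CPM (1.42 ± 0.09), *fat-1*, the omega-3 desaturase, from 185 and 187 to 631 and 649.7 CPM (1.78 ± 0.08), *fat-3* from 296 and 327 to 870.2 and 816 CPM (1.44 ± 0.08) and *fat-4* from 282 and 259.7 to 940.3 and 962 CPM (1.81 ± 0.08). The stearoyl-CoA desaturase *fat-6* went the other way, from 541 and 556 to 317 and 440.5 CPM (-0.53 ± 0.17, adjusted p = 0.033). Its call was lost when 1 library was left out. Its sequence is similar to that of *fat-7*, which had 11 counts in the starved and 5 in the CeMM pair. Against 3 h, *fat-2*, *fat-3*, *fat-4* and *fat-6* were higher at 15 h, by between 0.38 and 0.67 on the log2 scale, and *fat-7* was lower, at a level of 0.560 and 0.406 CPM at 3 h and 0.0585 and 0.0918 CPM at 15 h. Without normalization factors 3 were higher and 1 lower.

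Elongases, which lengthen the chain, gave 6 higher and none lower of 9. *elo-6* and *elo-5*, which serve the branched-chain fatty acids that larvae need to leave L1 arrest, went from 19.7 and 9.55 to 226 and 232 CPM (3.97 ± 0.29) and from 22.02 and 11.8 to 62.6 and 79.1 CPM (2.07 ± 0.29). *elo-1* (0.78 ± 0.08), *elo-3* (0.73 ± 0.08), *elo-9* (0.80 ± 0.12) and *elo-4* (1.42 ± 0.31, at about 1 CPM) also rose. *elo-7* and *elo-8*, both under 1 CPM, were not called, and *elo-2*, which was not called, went from 75.9 and 66.2 to 63.3 and 76.6 CPM. In a list of 16 fatty acid synthesis genes and lipid regulators 10 were higher and 3 lower. *fasn-1*, the fatty acid synthase, went from 207 and 217 to 559 and 550.3 CPM (1.39 ± 0.20), still under the 2069.5 and 2001 CPM of fed larvae (-1.88 ± 0.20, adjusted p = 5.5e-05). The ATP-citrate lyase *acly-2* (11.9 and 14.04 to 95.8 and 100.3 CPM) and the lipid droplet protein *plin-1* (65.1 and 83.2 to 392 and 421 CPM) rose more. *mlcd-1*, the malonyl-CoA decarboxylase, which removes the inhibitor of carnitine import, rose from 22.8 and 24.8 to 99.8 and 93.6 CPM and was above its 3 h level by 1.26. The nuclear receptor *nhr-49* and the mediator subunit *mdt-15*, which drive many of these genes, were not called, at log2 fold changes of -0.04 ± 0.08 and -0.02 ± 0.09.

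Lysosomal lipases, which release fatty acids from lipid delivered to the lysosome, gave 4 higher and none lower of 8 against starved (4 and 2 without normalization factors), and 5 higher and none lower against 3 h. *lipl-3* was at 0.227 and 0.555 CPM in starved, 9.90 and 9.85 CPM at 3 h and 28.1 and 28.3 CPM at 15 h (6.154 ± 0.26, adjusted p = 1.2e-15). *lipl-1* went from 1.59 and 1.998 to 22.4 and 26.9 CPM, and *lipl-7* from 21.6 and 21.3 to 40.9 and 41.2 CPM. *lipl-4* ended at 3.25 and 1.59 CPM, from 0.113 and 0.222 CPM. *lipl-2* was lower at 3 h than at either other time, at 75.8 and 86.1 CPM in starved, 14.9 and 15.1 CPM at 3 h and 68.3 and 76.5 CPM at 15 h. Its difference from starved was -0.16 ± 0.11 (adjusted p = 0.33), and from 3 h it was 2.27 ± 0.12 (adjusted p = 8.0e-14). *lipl-5* showed the same order at 129 and 159, 79.3 and 87.6, then 133 and 168 CPM. Fed larvae had less of both, at 3.29 and 4.11, then 73.3 and 79.1 CPM.

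Of 6 genes of the glyoxylate shunt and glucose synthesis 4 were higher and none lower. *icl-1* (WBGene00001564, chromosome V, 724207 to 728103), the fused isocitrate lyase and malate synthase of the glyoxylate shunt, went from 44.004 and 81.2 to 4496 and 3844 CPM (6.06 ± 0.45, adjusted p = 6.9e-06). It was at 2011 and 2438 CPM at 3 h, and the step from 3 to 15 h did not pass the test (0.91 ± 0.36, adjusted p = 0.16). Pyruvate carboxylase *pyc-1* (149 and 158 to 712 and 666 CPM) and fructose bisphosphatase *fbp-1* (23.9 and 24.3 to 138.1 and 139.6 CPM), which serve glucose synthesis, rose by 2.16 and 2.53. The carboxykinase *pck-1* rose by 0.50, and *pck-2*, at 991 and 1042, then 1123 and 1214 CPM, was not called (0.20 ± 0.09).

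Of 22 tricarboxylic acid cycle genes 15 were higher and none lower, with a median of 0.88. Mitochondrial malate dehydrogenase *mdh-2* (95.3 and 118 to 848 and 932 CPM), aconitase *aco-2* (211 and 233 to 1373 and 1357 CPM) and citrate synthase *cts-1* (348 and 388 to 1424 and 1499 CPM) rose by 3.06, 2.62 and 1.99. Among the 22 genes listed the isocitrate dehydrogenase *idh-1* rose most, from 36.8 and 37.1 to 324 and 415 CPM. Whether this isoenzyme acts in the mitochondrial cycle was not tested. *ogdh-1*, of the oxoglutarate dehydrogenase complex, was at 794 and 873, then 852 and 836 CPM and was not called. Nuclear genes of the respiratory chain and ATP synthase gave 34 higher and 2 lower of 48 (28 and 7 without normalization factors, 28 and 3 without CeMM 15 h replicate 2), with a median of 0.52. The largest rises were in the complex II genes *sdhd-1* (1.51 ± 0.10), *sdha-1* (1.38 ± 0.09) and *mev-1* (1.35 ± 0.10) and in *ucr-2.2* of complex III (1.38 ± 0.09). Of 27 genes of the mitochondrial genome 1 was lower (*WBGene00014472*, at -1.41) and none higher. Without CeMM 15 h replicate 1 that count became 9 lower, and without replicate 2 it was 2 lower and 2 higher.

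Glycolysis genes gave 11 higher and 5 lower of 19. *ldh-1*, lactate dehydrogenase, went from 33.1 and 33.6 to 122.1 and 149.9 CPM (2.03 ± 0.09) and *tpi-1*, triose phosphate isomerase, from 98.4 and 106 to 269 and 294 CPM (1.47 ± 0.08). Against these, the aldolase *aldo-2* fell from 2922 and 3049 to 1175 and 1348 CPM (-1.24 ± 0.08) while the other aldolase, *aldo-1*, rose from 418 and 436 to 642 and 746 CPM (0.70 ± 0.08). *pfk-1.2*, a phosphofructokinase, went from 16.9 and 18.9 to 3.45 and 2.88 CPM (-2.497 ± 0.16). Without normalization factors the split for glycolysis was 8 higher and 7 lower. Trehalose and glycogen genes gave 8 higher and 3 lower of 13. Both trehalose synthases rose, *tps-1* from 121 and 129 to 408 and 351 CPM and *tps-2* from 75.0 and 88.1 to 248 and 221 CPM. The trehalases divided, with *tre-2* at 1.96 ± 0.10 and *tre-5* at -3.35 ± 0.22. Glycogen phosphorylase *pygl-1* (1.51 ± 0.08) and glycogen synthase *gsy-1* (0.77 ± 0.09) were both higher.

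In the propionate pathways 7 of 9 genes were higher and 1 was lower. The lower gene, *alh-8*, the methylmalonate semialdehyde dehydrogenase of the shunt, was at 7059 and 7364 CPM in starved and 1773 and 1977 CPM in CeMM 15 h larvae (-1.94 ± 0.08). The propionyl-CoA carboxylase subunits *pcca-1* (264 and 271 to 651 and 667 CPM) and *pccb-1* (189.7 and 204 to 659.8 and 706 CPM) of the vitamin B12-dependent route rose by 1.302 and 1.80. *acdh-1*, the first enzyme of the shunt, was low in both groups, at 2.78 and 3.66, then 5.47 and 3.73 CPM, against 731 and 713 CPM in larvae fed on bacteria. Methionine cycle genes gave 5 higher and 4 lower of 13. Methionine synthase *metr-1* was at 12.04 and 13.3 CPM in starved, 362 and 357 CPM at 3 h and 101 and 118.8 CPM at 15 h (3.11 ± 0.10). *sams-1*, the S-adenosylmethionine synthetase, was highest at 3 h of the 3 times: 369 and 286, then 1259 and 1271, then 331 and 327 CPM, against 2296 and 2225 CPM in fed larvae. Its difference from 3 h was -1.94 ± 0.09 (adjusted p = 2.7e-14) and from starved 0.01 ± 0.09. *pmt-1*, a methyltransferase of phosphatidylcholine synthesis, fell from 2342 and 2029 to 947 and 1094 CPM.

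Growth-related genes divided by type. Cytosolic ribosomal protein genes gave 76 higher and 1 lower of 80, with a median of 0.69. The lower gene was rpl-24.2, at -0.54. Against 3 h, 60 were higher and none lower (32 and 0 without normalization factors). *rpl-3* was at 3342 and 3533 CPM in starved and 4926 and 7044 CPM in CeMM 15 h larvae (0.80 ± 0.12, adjusted p = 4.6e-05), and *rps-1* at 2559 and 2723, then 3959 and 5483 CPM (0.84 ± 0.12). The CeMM 15 h replicates differed for this group. Over the 78 of these genes that averaged 10 CPM or more, replicate 2 was above replicate 1 in 78, by a median of 0.47 on the log2 scale. Replicate 1 alone was above both starved samples in 76, by a median of 0.44 over the starved mean, where replicate 2 gave 0.91. Without replicate 2 the count was 74 higher and 1 lower. It was 77 and 1 without replicate 1, 60 and 1 without starved replicate 1 and 64 and 1 without starved replicate 2. In some genes replicate 2 stood further apart: rps-28 and rps-29 were above the starved mean by 0.30 and 0.35 in replicate 1 and by 1.285 and 1.296 in replicate 2. *rpl-29* was at 500.1 and 472, then 633 and 1263 CPM and *rpl-39* at 509 and 457, then 617 and 1249.9 CPM, and both calls were lost when a library was left out (adjusted p up to 0.12 and 0.15). Beyond leaving out replicate 2, the part of its high rRNA share and of its excess of short genes was not tested.

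**Figure D3:**
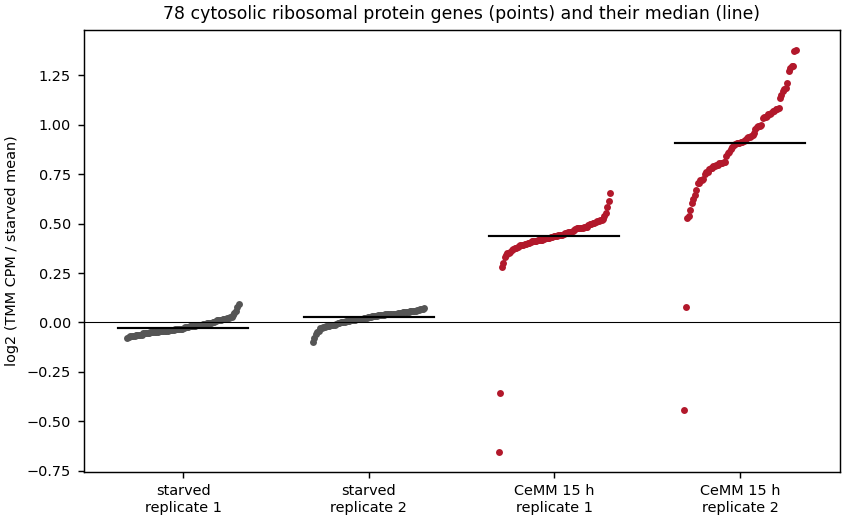
Log2 ratio of the TMM-normalized CPM in each of the 4 samples to the mean of the starved samples, for 78 cytosolic ribosomal protein genes (points, sorted by value) with their median as a line. Both CeMM 15 h samples lie above 0 for nearly all genes, replicate 1 by a median of 0.44 and replicate 2 by 0.91.

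Genes that build ribosomes gave a mixed split. Ribosome biogenesis genes gave 10 higher and 6 lower of 24 against starved, and 1 higher and 17 lower against 3 h. The nucleolar methyltransferase *fib-1* was at 35.98 and 43.5 CPM in starved, 342 and 382 CPM at 3 h, 169 and 225 CPM at 15 h and 1024 and 1019.8 CPM in fed larvae. *nol-56*, of the same particle, had the order 46.4 and 55.5, 355 and 397, 175 and 175, then 790.4 and 767 CPM. The RIO kinases, which act in the last steps of small subunit assembly, fell: *riok-1* from 639 and 606 to 162 and 116 CPM (-2.17 ± 0.11) and *riok-2* from 228 and 234.6 to 83.9 and 89.3 CPM (-1.42 ± 0.09). Mitochondrial ribosomal proteins gave 27 higher and 17 lower of 65, a split that turned to 14 higher and 21 lower without normalization factors and was 20 and 15 without CeMM 15 h replicate 2. Against 3 h, 1 was higher and 24 were lower.

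Translation factors gave 18 higher and 5 lower of 37, and 13 and 8 without normalization factors. The elongation factors *eef-1A.1* (10382 and 11207 to 14085 and 17730.0 CPM) and *eef-2* (7226 and 7724 to 10948 and 12741 CPM) rose by 0.56 and 0.66, and *eef-1A.2* rose by 1.33. *eif-3.C*, a subunit of initiation factor 3, went from 59.0 and 58.1 to 161 and 174 CPM (1.52 ± 0.08) and remained below the fed level of 526 and 503 CPM. Aminoacyl-tRNA synthetases gave 10 higher and 8 lower of 32 (9 and 11 without normalization factors), with *kars-1* (1.74 ± 0.09) and *cars-1* (-1.23 ± 0.08) at the ends. DNA replication genes gave 23 higher and none lower of 33, with a median of 0.80. The ribonucleotide reductase large subunit *rnr-1* went from 19.2 and 19.2 to 60.7 and 70.2 CPM (1.77 ± 0.10), the DNA polymerase epsilon gene *pole-1* from 15.5 and 20.7 to 55.8 and 56.1 CPM (1.63 ± 0.14) and the helicase subunit *mcm-2* from 11.4 and 10.7 to 30.9 and 34.8 CPM (1.57 ± 0.10). Fed larvae had 162 and 165.8 CPM of *rnr-1*, above the 15 h level (-1.32 ± 0.09). Cell cycle genes gave 9 higher and 4 lower of 20, among them *bub-1* (1.57 ± 0.10), *plk-1* (1.11 ± 0.09) and cyclin D, *cyd-1* (0.80 ± 0.10), and cyclin B, *cyb-1*, at -0.80 ± 0.19, a call that was lost when a library was left out. Without normalization factors the cell cycle split was 6 higher and 5 lower, and without CeMM 15 h replicate 2 it was 8 and 2.

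Several genes for ligands of the insulin and TGF-beta pathways were higher. Of 39 insulin-like peptide genes 16 were higher and 5 lower, at a median of 0.17 (-0.03 without normalization factors). Called changes ran from -2.87 to 5.78, and the insulin-like genes named here are among those that rose. Without CeMM 15 h replicate 2 the split was 11 and 5, and without starved replicate 2 it was 11 and 4. *daf-28*, which acts as an agonist of the insulin receptor, went from 5.87 and 6.94 to 71.9 and 93.7 CPM (3.69 ± 0.12, adjusted p = 9.2e-19), *ins-5* from 0.397 and 0.472 to 20.3 and 28.02 CPM (5.78 ± 0.20) and *ins-26* from 2.49 and 2.08 to 31.6 and 50.1 CPM (4.16 ± 0.26). All 3 were already high at 3 h, at 55.5 and 62.6, 17.7 and 20.5, then 28.6 and 30.2 CPM. *ins-27* was different: 32.2 and 35.8 CPM in starved, 24.2 and 22.8 CPM at 3 h and 65.2 and 85.6 CPM at 15 h, so that it was higher than at both earlier points (1.15 ± 0.16 and 1.68 ± 0.17). The TGF-beta ligand *daf-7*, made by sensory neurons of well-fed worms, went from 128 and 123 through 244 and 252 to 388 and 429 CPM (1.70 ± 0.08).

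Of 10 insulin signalling genes, the receptors, kinases and factors below these ligands, 1 was higher and 2 were lower, and 1 and 5 without normalization factors. The share was near that of all genes (29.2%), but those include many with few reads, while all 10 averaged 1 CPM or more. The kinase *pdk-1* was at 0.76 ± 0.11, the kinase *akt-1* at -0.36 ± 0.09, and the transcription factor *daf-16* went from 469 and 459 to 386 and 304 CPM (-0.43 ± 0.09, adjusted p = 0.00053). The *akt-1* call was lost when a library was left out (adjusted p up to 0.076). The receptor *daf-2*, at 501 and 515, then 369 and 320.5 CPM, was not called (-0.56 ± 0.22, adjusted p = 0.10), nor were *age-1*, *aap-1*, *akt-2*, *sgk-1*, *daf-18* and *ist-1*. TOR pathway genes gave 3 higher and 1 lower of 10, and 1 higher and 2 lower without normalization factors. *raga-1*, a Rag GTPase of the lysosomal surface, was at 0.51 ± 0.09, and *daf-15*, the raptor homolog, at -0.71 ± 0.14. *nprl-2* (0.38 ± 0.09) and *rict-1*, the rictor homolog (0.44 ± 0.10), were the other higher genes, and the call of *rict-1* was lost when a library was left out (adjusted p up to 0.068). The TOR kinase *let-363* (-0.03 ± 0.20) and *ragc-1* (0.21 ± 0.10) were not called, nor were *rheb-1*, *rsks-1*, *flcn-1* and *nprl-3*.

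**Figure D4:**
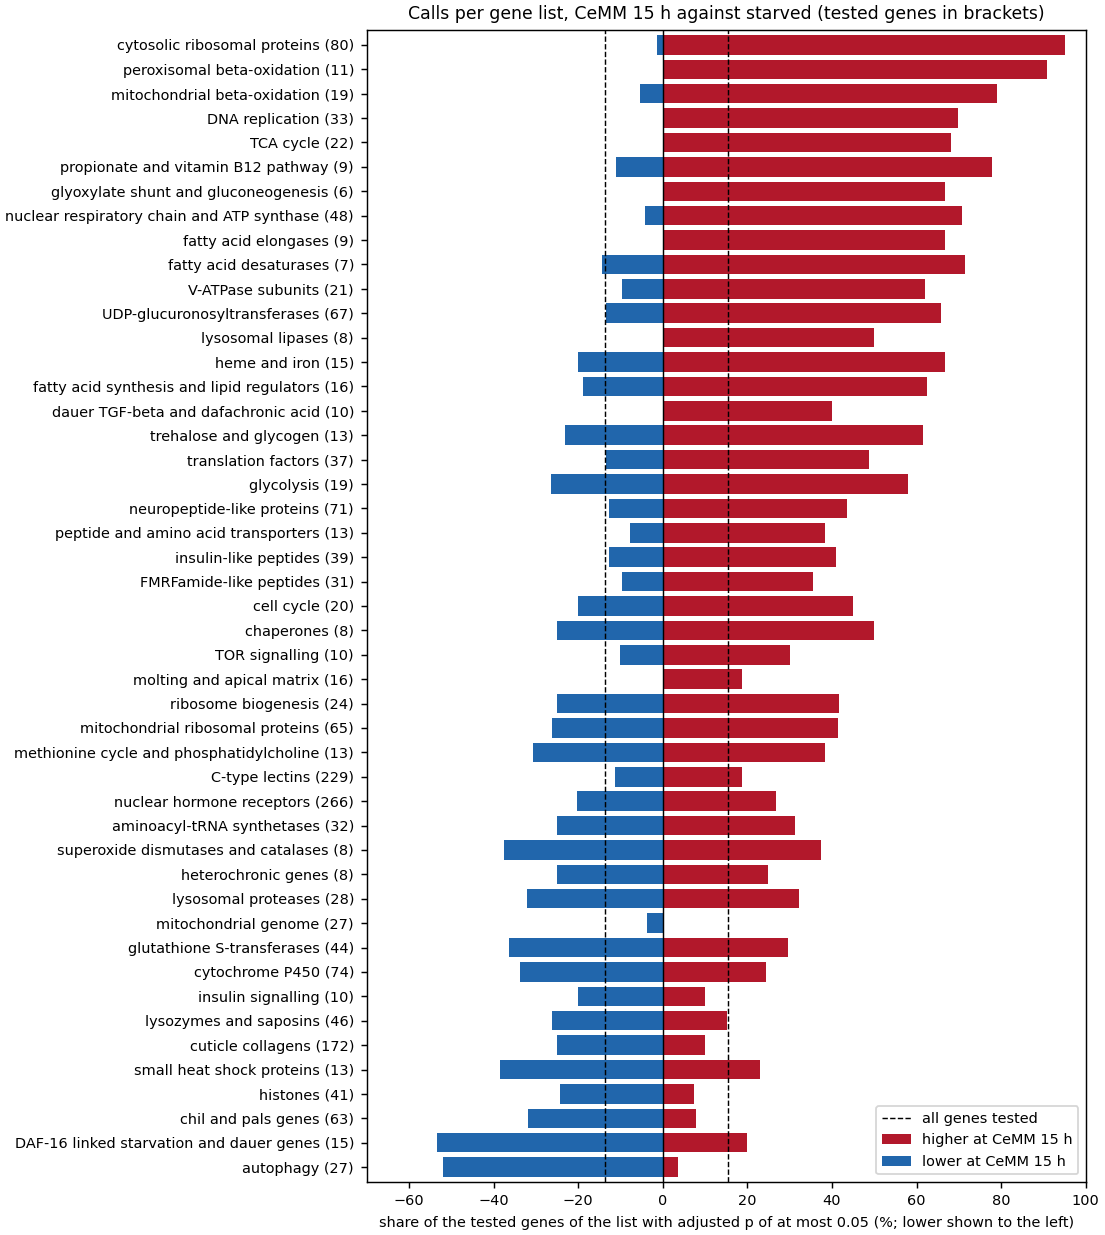
Share of the tested genes of each list that were higher (red, to the right) or lower (blue, to the left) in CeMM 15 h than in starved wild-type larvae at an adjusted p of 0.05, with the shares over all 30177 genes as dashed lines. Cytosolic ribosomal proteins, peroxisomal and mitochondrial oxidation and the tricarboxylic acid cycle lie far to the right, and autophagy and the DAF-16 linked genes to the left. The dashed lines include many genes with few reads and are a low baseline for lists of well-counted genes.

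Genes linked to the starved state fell more often than they rose, and some of them were lower at 3 h than at 15 h. Of 15 DAF-16 linked starvation and dauer genes 8 were lower and 3 higher at 15 h. Called changes in this list ran from -7.81 (*hsp-12.6*) to 6.06 (*icl-1*), genes that other lists also hold. The long noncoding RNA *tts-1* (WBGene00006650, chromosome X, 1504131 to 1504841), known from long-lived and dauer animals, was at 16157 and 14246 CPM in starved, 1677 and 1516 CPM at 3 h and 4204 and 3597 CPM at 15 h, against 57.8 and 79.4 CPM in fed larvae. It was below starved at 15 h (-1.96 ± 0.17, adjusted p = 4.4e-06) and above its 3 h level (1.29 ± 0.16, adjusted p = 0.00031). The manganese superoxide dismutase *sod-3* showed the same order, at 13.3 and 10.9, 0.487 and 0.381, then 3.92 and 4.99 CPM. The metallothionein *mtl-1* went from 169 and 159.9 to 52.4 and 63.9 CPM at 3 h and was at 142 and 199 CPM at 15 h, with no detectable difference from starved (0.05 ± 0.16, adjusted p = 0.94) and a difference of 1.55 ± 0.16 from 3 h. Against 3 h, 6 of the 15 were higher and 1 was lower, and 5 and 3 without normalization factors. *lea-1*, a protein of desiccation tolerance, was not called (-0.17 ± 0.08).

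Small heat shock proteins gave 3 higher and 5 lower of 13. Besides the HSP12 genes, *F08H9.4* went from 4.73 and 2.39 to 0.322 and 0.520 CPM and *F08H9.3* from 11.8 and 12.4 through 0.389 and 0.837 to 3.66 and 3.33 CPM, while *hsp-25* rose from 69.6 and 84.7 to 162 and 180.0 CPM. Of 8 larger chaperones 4 were higher and 2 lower. The cytosolic HSP70 *hsp-1* went from 800.1 and 839.9 to 2279 and 2508 CPM (1.55 ± 0.09) and mitochondrial *hsp-60* from 14.8 and 16.484 through 174 and 194 to 78.2 and 64.7 CPM (2.19 ± 0.10), while its partner *hsp-6* fell from 531 and 528 to 351 and 293 CPM (-0.72 ± 0.09). The heat-inducible *hsp-70* went from 4.70 and 3.14 to 0.439 and 0.857 CPM (-2.60 ± 0.75, adjusted p = 0.030), a call that was lost when a library was left out (adjusted p up to 0.17). *hsp-3* (0.47 ± 0.08) and *hsp-110* (0.80 ± 0.14) rose, and *hsp-4* and *hsf-1* were not called. Superoxide dismutases and catalases gave 3 higher and 3 lower of 8 (3 and 4 without normalization factors). The cytosolic *sod-1* (1.14 ± 0.10) and mitochondrial *sod-2* (1.25 ± 0.10) rose and the inducible *sod-3* (-1.44 ± 0.15) and *sod-5* (-3.45 ± 0.32) fell. The largest called rise of the list, 1.88, was in another gene.

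Autophagy genes were lower as a group, with 14 of 27 lower and 1 higher (atg-5, at 0.42) and a median of -0.34. *atg-16.2*, which helps to place the lipid conjugation step on the membrane, went from 108 and 106.8 to 43.4 and 42.9 CPM (-1.31 ± 0.09), and the adaptor *epg-2* from 81.5 and 78.7 to 36.9 and 38.9 CPM (-1.08 ± 0.09). The receptor *sqst-1*, the worm p62, went from 599 and 679 to 433 and 456 CPM (-0.52 ± 0.08) and the ATG8 homolog *lgg-2* from 746 and 785 to 491 and 465 CPM (-0.68 ± 0.12). The other ATG8 homolog, *lgg-1*, was at 639.7 and 649.8, then 539 and 676 CPM with 399 and 371 CPM at 3 h, so that it differed from 3 h (0.66 ± 0.11) but not detectably from starved (-0.09 ± 0.11, adjusted p = 0.64). Fed larvae had less of 20 of the 27 than CeMM 15 h larvae, and more of 2.

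Lysosomal proteases divided evenly, 9 higher and 9 lower of 28. Among those that fell, the aspartyl protease *asp-1* went from 9232 and 11052 to 3007 and 3437 CPM (-1.65 ± 0.11), *asp-6* from 7025 and 8677 to 3354 and 3668 CPM (-1.16 ± 0.10) and *asp-3* from 1995 and 2348 to 1073 and 1195 CPM (-0.94 ± 0.09). The cathepsin B genes *cpr-4* and *cpr-1* rose, *cpr-4* from 12.4 and 18.5 through 895 and 924 to 483 and 566 CPM (5.08 ± 0.19) and *cpr-1* from 76.9 and 98.9 to 259 and 332 CPM (1.75 ± 0.19). V-ATPase subunits, which form the proton pump of the lysosome, gave 13 higher and 2 lower of 21 against starved (12 and 4 without normalization factors), and none higher and 10 lower against 3 h. *vha-12* went from 243 and 267 through 886 and 968 to 613 and 708 CPM (1.37 ± 0.08) and *vha-13* from 490.2 and 521 through 1274 and 1407 to 956 and 937 CPM (0.90 ± 0.08). *vha-6*, the membrane subunit of the intestinal apical pump, fell from 711 and 814 to 437 and 452 CPM (-0.78 ± 0.09), and *vha-2* was not called (-0.04 ± 0.09). Fed larvae had more of 18 of the 21 than CeMM 15 h larvae.

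Heme and iron genes gave 10 higher and 3 lower of 15. *C*. *elegans* cannot make heme and takes it from food. *hrg-7*, a secreted aspartyl protease that signals heme need between tissues, went from 18.8 and 21.7 to 202 and 211 CPM (3.35 ± 0.12), and the heme carrier *hrg-3* from 0.142 and 0.194 to 2.52 and 2.45 CPM (3.85 ± 0.33). The ferritin *ftn-2* rose by 0.71, and *ftn-1* was not called (-0.07 ± 0.21). Of 13 peptide and amino acid transporters 5 were higher and 1 lower, 3 and 3 without normalization factors, and 3 and 1 without starved replicate 2. The lower gene was *pept-2*, at -0.48. *pept-1*, the intestinal peptide transporter, was at 59.5 and 61.2 CPM in starved, 291 and 279 CPM at 3 h, 113 and 126 CPM at 15 h and 524 and 516 CPM in fed larvae.

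Collagen genes of the cuticle gave 17 higher and 43 lower of 172 (16 and 34 without CeMM 15 h replicate 2), with a median of -0.71. *col-39* fell from 907 and 902 to 98.3 and 109.8 CPM (-3.12 ± 0.09), *col-166* rose from 32.6 and 37.6 to 506 and 466 CPM (3.79 ± 0.09), and *col-42* was at 1202 and 1216 CPM in starved, 164 and 149 CPM at 3 h and 511 and 623 CPM at 15 h. Of 16 molting genes 3 were higher, a share near that of all genes, and none lower (3 and 1 without normalization factors). The higher genes were *mlt-10* (1.72 ± 0.39), *let-653* (1.24 ± 0.30) and the nuclear receptor *nhr-23* (0.87 ± 0.12), which times the molt. The calls of *mlt-10* and *let-653* were lost when a library was left out (adjusted p up to 0.053 and 0.087), and in fed larvae 15 of the 16 were higher than in CeMM 15 h larvae.

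UDP-glucuronosyltransferases, which couple sugars to foreign and internal compounds, gave 44 higher and 9 lower of 67 at a median of 1.13. *ugt-66* went from 0.765 and 0.694 to 47.1 and 44.1 CPM (5.96 ± 0.28) and *ugt-8* from 0.227 and 0.416 to 8.25 and 7.86 CPM (4.63 ± 0.23), while *ugt-46* was at -0.68 ± 0.16, a call that was lost when a library was left out (adjusted p up to 0.064). Cytochrome P450 genes divided, 18 higher and 25 lower of 74 (18 and 19 without CeMM 15 h replicate 2). *cyp-36A1* rose from 3.54 and 3.44 through 14.4 and 11.01 to 43.2 and 43.5 CPM (3.63 ± 0.13), and *cyp-33C1* fell from 4.45 and 4.11 to 0.351 and 0.214 CPM (-3.90 ± 0.33). *cyp-25A1* had 8 counts in the starved pair against 524 in the CeMM pair (6.08 ± 0.33). Glutathione S-transferases gave 13 higher and 16 lower of 44, and 16 and 14 without starved replicate 2: *gst-4* rose from 3.12 and 4.80 to 28.2 and 31.2 CPM and *gst-15* fell from 41.99 and 37.5 to 5.15 and 5.23 CPM.

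Families of innate defence genes gave different splits. C-type lectins gave 43 higher (18.8%) and 26 lower (11.4%) of 229, shares near the 15.4% and 13.8% of all genes, and 39 and 36 without normalization factors. *clec-48* went from 1.62 and 2.25 to 61.5 and 74.8 CPM (5.14 ± 0.21), and *clec-63* from 1696 and 2019 to 1349 and 1448 CPM (-0.41 ± 0.09), a call lost when a library was left out (adjusted p up to 0.065). Lysozymes and saposin-like proteins gave 7 higher (15.2%) and 12 lower (26.1%) of 46, the first share near that of all genes. Their median was -0.14, and it was -0.02 without CeMM 15 h replicate 1 and -0.50 without replicate 2. The lysozyme *lys-1* rose from 21.9 and 25.9 to 198 and 256 CPM (3.25 ± 0.15), and the saposin-like *spp-8* (1121 and 1218 to 217 and 270.0 CPM) and *spp-18* (208 and 197 to 31.97 and 42.5 CPM) fell. Of 63 chil and pals genes, families known from the response to intracellular pathogens and oomycetes, 5 were higher and 20 lower (5 and 14 without CeMM 15 h replicate 2), such as *chil-13* from 88.3 and 78.8 to 20.6 and 16.3 CPM. *chil-18* was among the 5 that rose (1.39 and 1.91 to 12.52 and 11.96 CPM).

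Neuropeptide genes were more often higher than lower at 15 h against 3 h. Of 31 FMRFamide-like genes 21 were higher and none lower against 3 h (10 and 1 without normalization factors), and 11 were higher and 3 lower against starved. Without normalization factors the second split was 3 and 3, and without CeMM 15 h replicate 2 it was 8 and 2. *flp-1* was at 355 and 376 CPM in starved, 298 and 303 CPM at 3 h and 481 and 508 CPM at 15 h (0.44 ± 0.09 against starved), with 106 and 109 CPM in fed larvae. *flp-18* had the order 163 and 155.3, 141 and 137, then 247 and 232 CPM, and *flp-10* fell from 87.4 and 94.2 to 37.8 and 33.8 CPM. Neuropeptide-like genes gave 31 higher and 9 lower of 71 against starved, and 37 higher and 3 lower against 3 h. Without normalization factors these were 20 and 12, and 23 and 3, and without CeMM 15 h replicate 2 the first was 24 and 10. *nlp-18* went from 233 and 221 to 334 and 360.2 CPM. *nlp-31* and *nlp-33*, which encode antimicrobial peptides of the epidermis, were at 12.099 and 8.88, then 28.7 and 22.3 CPM in starved larvae. At 15 h *nlp-31* was at 29.5 and 96.7 CPM and *nlp-33* at 77.2 and 225 CPM, so that the replicates differed by about as much as replicate 1 did from the starved samples.

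**Figure D5:**
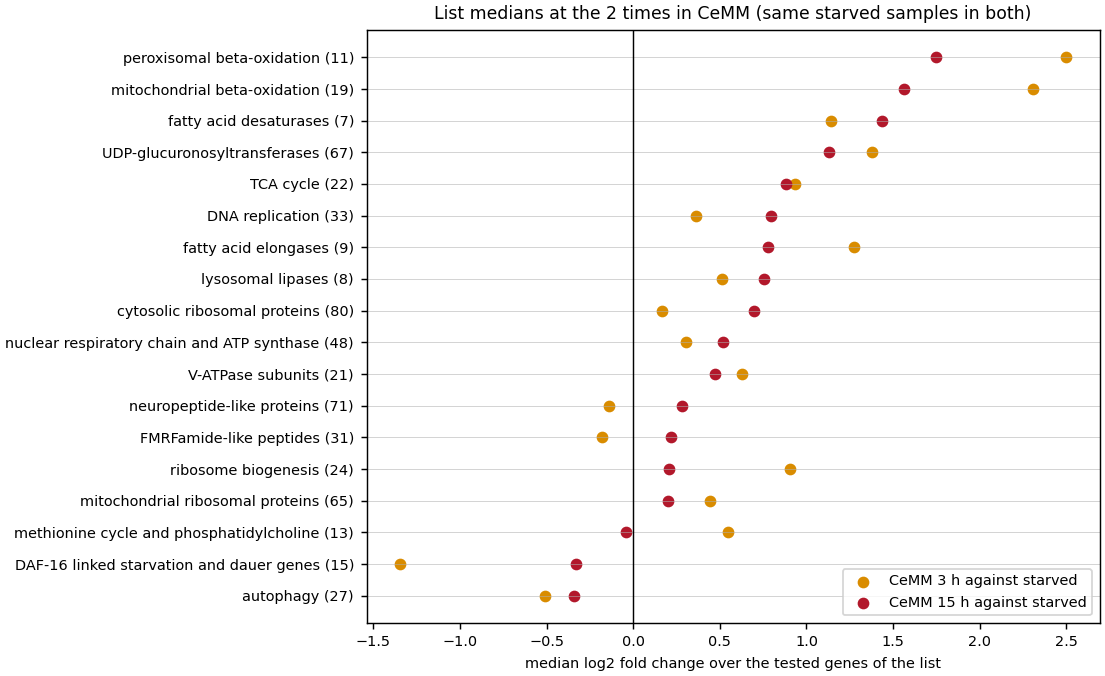
Median log2 fold change over the tested genes of 18 lists, for CeMM 3 h (orange) and CeMM 15 h (red) against the same starved wild-type samples. On the TMM scale the oxidation lists and ribosome biogenesis have the larger median at 3 h, and ribosomal proteins, DNA replication, the respiratory chain and the neuropeptides the larger one at 15 h, of which the respiratory chain changes its order without normalization factors (0.35 at 3 h and 0.31 at 15 h).

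The change from starved to 15 h was also set against that in *hlh-30(lf)* larvae by an interaction term, the wild-type log2 fold change minus that of the mutant. It was positive for 3616 genes (12%) and negative for 3135 (10.4%), and for 2537 and 4104 without normalization factors. Both changes enter it, and neither genotype's value alone is shown by it. For *acs-2* the libraries labelled *hlh-30(lf)* held 1.32 and 0.889 CPM when starved and 5.69 and 1.25 CPM at 15 h, a change of 1.62 against 9.01 in wild type (interaction 7.39 ± 1.02, adjusted p = 0.00064). *hacd-1* (3.502 and 2.54 to 7.50 and 4.70 CPM) and *icl-1* (117 and 118.6 to 308 and 198 CPM) changed by 1.01 and 1.1 in the mutant, with interactions of 5.29 ± 0.36 and 4.96 ± 0.54. *lipl-3* was at or under 0.0599 CPM in all 4 mutant samples, below the level of 3 counts, and gives no usable size of difference. By list, 22 of 33 DNA replication genes had a positive interaction and 1 a negative one, while 8 of 11 peroxisomal oxidation genes and 13 of 21 V-ATPase subunits had a negative one, against 0 and 2 positive. Mitochondrial oxidation genes, which include *acs-2* and *hacd-1*, were mixed, with 7 positive and 4 negative of 19. Their median interaction was 0.16, and -0.05 without normalization factors. Desaturases gave 6 positive and 0 negative of 7, and elongases 7 and 0 of 9.

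For *lipl-2* and *asp-1* the fitted change was positive in the mutant and negative in wild type, where that of *asp-1* was called and that of *lipl-2* was not. *lipl-2* went from 0.479 and 0.680 to 4.71 and 4.10 CPM in *hlh-30(lf)* larvae and was at 75.8 and 86.1, then 68.3 and 76.5 CPM in wild type (interaction -3.06 ± 0.23, adjusted p = 4.8e-11). *asp-1* went from 434 and 428 to 1888 and 1615 CPM in the mutant, where wild type went from 9232 and 11052 to 3007 and 3437 CPM (interaction -3.68 ± 0.16, adjusted p = 1.1e-12). For both genes the starved mutant samples lay far below the starved wild-type samples, so that the 2 changes start from different levels. *sqst-1* started higher in the mutant, at 2272 and 2293 CPM, and ended at 517 and 497 CPM (interaction 1.65 ± 0.11).

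Against fed wild-type larvae, CeMM 15 h larvae had 5029 genes higher (16.7%) and 5089 lower (16.9%), or 3748 and 5968 without normalization factors. The 3 h samples differed from starved at 4530 genes upward (15.0%) and 4559 downward (15.1%). The fed comparison differs in food, in liquid against dish, in the starvation before it and in age. By the study's methods fed larvae were collected sooner after the egg stage, and these differences cannot be told apart. DNA replication genes were lower than in fed larvae in 25 of 33 and higher in none, ribosome biogenesis genes in 19 of 24 and mitochondrial ribosomal proteins in 53 of 65. Autophagy genes were higher than in fed larvae in 20 of 27, lysosomal lipases in 7 of 8 and FMRFamide-like peptides in 29 of 31. Cytosolic ribosomal proteins were higher than in fed larvae in 72 of 80 and lower in 1. For each of these 7 lists the same direction prevailed without normalization factors.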

How the data were processed

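RNAseq of whole L1 larvae was used from the 2 wild-type groups above, with the other samples in the same fit. Per the labels and methods, the authors extracted RNA with TRIzol, made TruSeq libraries, aligned reads to WBcel235 with STAR 2.0.4b and deposited per-gene featureCounts counts, the values tested here. CPM and RPKM columns were also deposited by the authors for the same genes, normalized per library and, for RPKM, per exonic length. They were used only to check the counts. The counting is not stated to use strand, so overlapping and antisense genes are uncertain, as are genes of similar sequence such as *fat-6* and *fat-7*. Genes with at least 1 count in the 16 samples (30177 of 46726) were fitted in R 4.3.3 with edgeR 4.0.16 (TMM factors, robust quasi-likelihood test, a coefficient for each group). A gene was called where its Benjamini-Hochberg adjusted p was 0.05 or less. SE is the log2 fold change over the root of F. Intervals of count ratios are 95% and cover counting error only. The test was also run on simulated counts with known changes. Those counts did not copy the rRNA share and short-gene excess of CeMM 15 h replicate 2, so they do not check the test for that library. Alternatives were DESeq2 1.42.0, limma 3.58.1 (voom), older edgeR settings, other scalings and filters, rRNA genes left out, a replicate block, a 2-fold minimum and leaving out single libraries.

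The genes named are *hlh-30*, the 12 largest called rises and falls with at least 10 CPM in the higher group and groups that do not overlap, members of lists of up to 10 tested genes (any could be named), and from longer lists up to 4 called genes of largest change and 4 of highest level. acdh-9, rpl-24.2, atg-5, rps-28 and rps-29 were named after their values were seen. The comparison and the gene lists were chosen with earlier results of these data known.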

Additional observations from a re-analysis of the deposited data

Results flagged for a closer look

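The change from starved to CeMM 15 h differed between wild-type and *hlh-30(lf)* larvae by the interaction test for many genes. The wild-type change was above that of the mutant for 3616 genes and below it for 3135, and it differed for 154 of the genes named here. The last count and the order below cannot be set against all genes. The wild-type change enters the interaction, and it was large by choice in many of the named genes. The largest positive differences among these, on the log2 scale, were 7.39 for *acs-2*, followed by 5.95 for *scl-25*, 5.76 for *scl-24*, 5.63 for *WBGene00014732*, 5.29 for *hacd-1*, 5.19 for *F46C5.1*, 4.96 for *icl-1*, 4.67 for *ugt-66*, 4.47 for *Y37A1A.2* and 4.44 for *elo-5*. For *lipl-3* a value of 7.06 was fitted with an SE of 1.70, but its mutant samples lay below the level of 3 counts, so that it is no measure of size. The most negative were -6.77 for *F47B8.10* and -5.99 for *txt-4*, followed by -5.41 for *Y46G5A.36*, -4.89 for *hsp-12.6*, -4.78 for *asm-3*, -4.63 for *cyp-33C1*, -4.57 for *gst-20* and -4.11 for *lmd-4*. The mutant samples held little *cyp-33C1*, at 0.0599 and 0.183 CPM when starved and 0.337 and 0.104 CPM at 15 h.

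For some of these genes the starved samples of the genotypes already lay apart. *F47B8.10* was at 91.3 and 57.4 CPM in starved wild-type and 0.688 and 0.366 CPM in starved *hlh-30(lf)* larvae, and at 1.199 and 0.734, then 0.673 and 0.805 CPM after 15 h. *txt-4* had the same form, with 26.6 and 25.7, then 0.239 and 0.183 CPM when starved. For *acs-2* the starved samples of both genotypes were low and the samples at 15 h were apart, at 1061 and 955 CPM in wild type and 5.69 and 1.25 CPM in the mutant.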

How the results depend on the processing

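Of the 192 genes named here that were called between CeMM 15 h and starved, none changed sign under an alternative that was run, and 15 lost their call when some single library was left out. Each such fit has 1 sample in an arm, which is assumed to vary like the other groups. The count for that comparison stayed within 1.5 times under DESeq2 (4320 higher and 3750 lower), limma-voom (4622 and 4372), the low count filter (4784 and 4369) and the fit of both groups alone (4131 and 3569), and without single replicates it ran from 3817 to 4323 higher and from 3303 to 3457 lower. With no normalization factors it was 3150 higher and 5553 lower. The direct comparison with 3 h depended more on the fit: 1326 higher and 4150 lower with no normalization factors, 1633 and 1121 from the groups compared alone, and 1213 to 1756 lower without single replicates, the lowest without CeMM 3 h replicate 1, with 1789 to 2655 higher. A minimum change of 2-fold left 1767 higher and 1948 lower genes against starved, 709 and 482 against 3 h, 1816 and 2171 for 3 h against starved, 1869 and 1727 for the interaction, and 2403 and 2614 against fed.

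The replicate number as a block gave 4634 higher and 4088 lower genes between CeMM 15 h and starved. Deviations from the group means of samples with the same number correlated at 0.138 over 13529 genes, and the block changed no call of the genes named here in that comparison. The study's methods describe replicates done at separate times with their controls, but no label says that a number marks a time, and 2 pairs do not settle it. For the CeMM 3 h samples the correlations were -0.173 and -0.264, and a block with those numbers crossed, added after the data were seen, gave 2597 higher and 1774 lower genes at 15 h against 3 h, where the uncrossed block gave 2643 and 1830.

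A count of 0 in 1 library allows up to 3 counts, about 0.09 CPM, which covers counting error only. With 2 samples a group, an exact permutation test of a single value cannot reach 0.05, and every call rests on the spread shared across samples and genes.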

Other observations

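Some regulators of larval timing were called in the same samples. Of 8 heterochronic genes, which order the events of larval stages, 2 were higher and 2 lower (1 and 3 without normalization factors). *lin-28*, an RNA-binding protein of early larval fates, went from 210.4 and 198 to 129 and 128 CPM (-0.67 ± 0.08, adjusted p = 9.8e-08). *lin-41*, another RNA-binding protein, went from 288 and 332 to 434 and 414 CPM (0.45 ± 0.10) and the zinc finger gene *lin-29* from 2.83 and 3.05 to 4.86 and 5.38 CPM (0.80 ± 0.18). *lin-14*, which acts in the first stage, was not called (-0.19 ± 0.15). In the TGF-beta branch of dauer control the receptor *daf-4* (161 and 178 to 233.7 and 229 CPM) and the Sno/Ski-type gene *daf-5* (368 and 379.8 to 612 and 526 CPM) were higher.

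Nuclear hormone receptors gave 71 higher and 54 lower of 266, a split that turned to 56 and 80 without normalization factors and was 59 and 46 without CeMM 15 h replicate 2. *nhr-88* fell from 949 and 867 to 266 and 197 CPM (-1.97 ± 0.13) and was at 239 and 265 CPM at 3 h, while *nhr-97* rose from 212 and 211 to 355 and 349.9 CPM (0.74 ± 0.08). Histone genes gave 3 higher and 10 lower of 41, or 5 and 6 without CeMM 15 h replicate 1. The H3.3 gene *his-72* (220.2 and 225 to 291 and 317 CPM) and the linker histone *his-24* (172 and 218 to 281 and 322 CPM) rose. Many replication histone genes are near-identical copies, so that reads may be split between them.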
